A study of Mus musculus with 27 samples.

Results

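The genes described here build the fibrous matrix between cells: Col1a1, Col1a2, Col3a1, Dcn, Lum, Postn, Sparc and Fn1. They were read through a fixed list of 13 probe sets (groups of oligonucleotides that read 1 transcript), out of the 45101 on the Affymetrix mouse expression array, in the 21 tumours whose RNA was profiled. The gene of each probe set was taken from that list, because the tables used here hold probe sets without gene names. Col1a1, Col1a2, Col3a1, Sparc and Fn1 had 2 probe sets each and the other 3 genes had 1. No measured value entered the choice rule, though the members were chosen with earlier results of these data known. All 13 probe sets passed the filter on low signal, which left 32842 probe sets for testing.

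All tumours were medulloblastoma, a cerebellar tumour, of Ptch+/-p53-/- genotype, taken from transgenic mice and grown as allografts under the flank skin of nu/nu nude mice. NVP-LDE225 (LDE225) is an antagonist of Smo, the receptor through which Hedgehog signalling acts, and treatment started some 10 days after the grafts were placed. The resistant ones were taken on day 26 of treatment, given as 2 doses a day of LDE225, with 2 tumours at 20 mg/kg/day and 3 at 160 mg/kg/day. Sensitive tumours received LDE225 at 20 mg/kg/day in 1 daily dose or vehicle, and 3 tumours of each kind were taken at 4 h, 3 at 16 h and 2 at 48 h. Graft and host were both mouse, so the arrays could not tell transcripts of tumour cells from those of host fibroblasts, vessels or skin. Whether the grafts came from separate donor tumours is not given, so p-values measure the spread between these tumours. In such bulk samples, fewer cells of a type and less RNA per cell cannot be told apart. The levels are MAS5 signals, linear intensities scaled by array, with array means between 221.4 and 256.4. Actin signal at the 3′ end over that at the 5′ end, a measure of how intact the labelled RNA was, lay at 1.25 to 1.40 in the arrays of 48 h and of resistant tumours, against 1.53 to 1.91 in those of 4 h and 16 h. Markers of fibroblasts, vessels, macrophages, skin and of the granule neuron lineage were not analysed here for want of a table of probe sets and genes.

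Type I collagen is a triple helix of chains made from Col1a1 and Col1a2, and type III collagen is a helix of Col3a1 chains that often runs in the same fibrils. Decorin and lumican are small leucine-rich proteoglycans that bind those fibrils and shape their width and spacing. Periostin and Sparc are matricellular proteins, which sit in the matrix and adjust cell contacts and collagen handling more than they bear load, and fibronectin forms the network on which collagen is first laid down. In most solid tissues fibroblasts and related mesenchymal cells are the main source of the fibrillar collagens, decorin and lumican, whereas Sparc and fibronectin are also made by endothelial and other cells.

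Promoters are shown because most of these genes moved together across tumours. RefSeq sequences of assembly GRCm38.p6, from 250 bases before to 50 bases after the annotated start, were found for 4 of the 8 genes (Col1a2, Col3a1, Postn and Sparc). Col1a1, Dcn, Lum and Fn1 are named only. Capitals mark exact matches, on either strand, to the TATA box (searched as TATAAA), the CCAAT box, the GC box of Sp1 (searched as GGGCGG), or the motifs of AP-1 (searched as TGANTCA), Smad (searched as CAGAC) and Gli (searched as GACCACCCA). The windows lie at chr6:4505368-4505667 on the plus strand, chr1:45311288-45311587 on the plus strand, chr3:54360857-54361156 on the plus strand and chr11:55420031-55420330 on the minus strand, in the order given here.
Col1a2: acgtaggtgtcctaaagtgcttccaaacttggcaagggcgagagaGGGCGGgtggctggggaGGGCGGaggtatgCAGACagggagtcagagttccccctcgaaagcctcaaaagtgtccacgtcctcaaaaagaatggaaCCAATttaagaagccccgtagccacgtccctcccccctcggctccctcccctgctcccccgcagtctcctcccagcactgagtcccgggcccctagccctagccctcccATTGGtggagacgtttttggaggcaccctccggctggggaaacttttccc
Col3a1: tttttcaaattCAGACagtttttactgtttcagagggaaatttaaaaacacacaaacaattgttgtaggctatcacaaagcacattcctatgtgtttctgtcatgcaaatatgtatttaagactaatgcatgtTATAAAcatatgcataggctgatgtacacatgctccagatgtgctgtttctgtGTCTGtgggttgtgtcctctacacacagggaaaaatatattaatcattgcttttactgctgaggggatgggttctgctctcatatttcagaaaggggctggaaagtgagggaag
Postn: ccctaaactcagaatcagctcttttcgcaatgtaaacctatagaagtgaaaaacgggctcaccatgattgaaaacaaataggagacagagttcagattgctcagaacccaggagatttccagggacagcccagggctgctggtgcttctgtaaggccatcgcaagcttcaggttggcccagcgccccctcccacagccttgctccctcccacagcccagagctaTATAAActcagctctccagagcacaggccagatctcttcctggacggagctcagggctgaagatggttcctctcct
Sparc: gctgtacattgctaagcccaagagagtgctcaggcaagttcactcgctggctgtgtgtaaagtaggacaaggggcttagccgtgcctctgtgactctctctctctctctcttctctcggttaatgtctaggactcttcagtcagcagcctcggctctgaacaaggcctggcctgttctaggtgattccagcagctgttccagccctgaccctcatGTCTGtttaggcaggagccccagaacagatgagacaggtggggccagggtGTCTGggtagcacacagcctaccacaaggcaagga
The Col1a2 window held 2 GC boxes, 2 CCAAT boxes and 1 Smad motif. The Col3a1 window held 1 TATA box, at -117 from the start, and 2 Smad motifs. The Postn window held 1 TATA box at -26, and the Sparc window held 2 Smad motifs. The RefSeq table has another Postn window upstream, at chr3:54359017-54359316, with 1 CCAAT box and 1 Smad motif. None of the 6 motifs was found in all 5 windows, and the AP-1 and Gli motifs were found in none of them. Among 32851 promoter windows of the same length, 49.6% held the Smad motif, 37.4% a CCAAT box, 35.7% a GC box, 13.6% a TATA box, 7.81% the AP-1 motif and 0.253% the Gli motif, so the commonest match was also common elsewhere.

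The matrix genes differed widely between tumours of 1 group. The pooled SD within groups, on the scale of log2(signal + 4) used for all tests, was 1.58 for Dcn and 1.21 for Lum, against a median of 0.33 over all probe sets tested. It was 0.98 and 1.10 for the probe sets of Col3a1, 0.74 for Postn, and 0.37 and 0.39 for those of Sparc, the steadiest gene of the list. In the vehicle groups the same mouse number tended to be highest, though by little for some genes at 4 h, and at 48 h only 2 tumours were measured. The vehicle tumour numbered mouse 1 had the highest value of its group for 12 of 13 members at 4 h, for 13 at 16 h and for 13 at 48 h. At the other end, mouse 3 of the resistant tumours at 160 mg/kg/day had the lowest value of all 21 tumours for 11 of 13 members. The mean over the 8 genes, relative to the vehicle mean, was -2.29 on the log2 scale in that tumour, against 0.15 and -0.79 in mice 1 and 2 of the same dose. It stood at 2.38 and 2.34 in LDE225-treated tumours of 48 h, and at 1.58 and -0.47 in mice 1 and 3 given vehicle for 48 h.

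**Figure D1:**
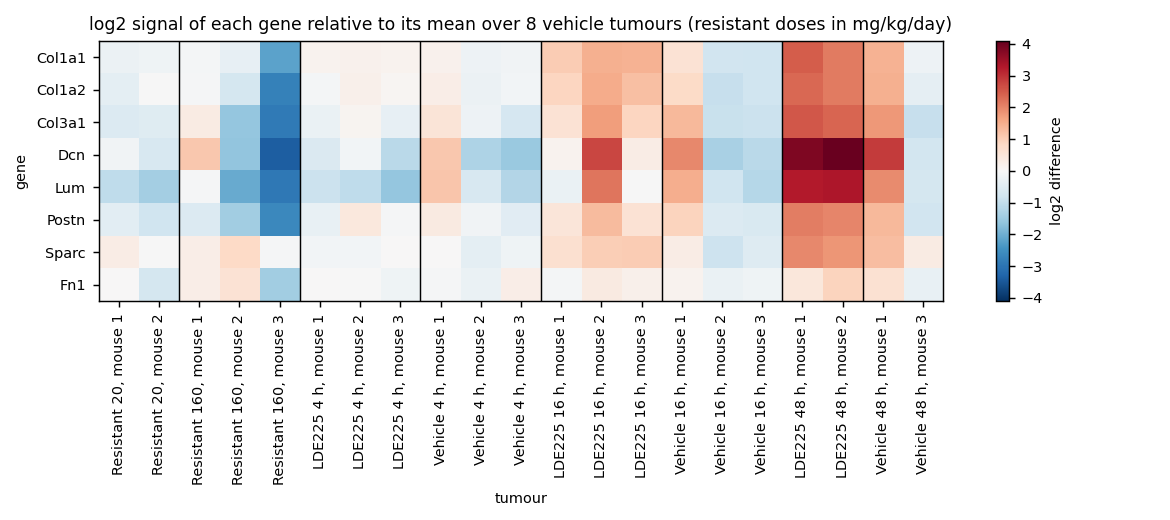
Log2 signal of each of the 8 genes (down the side, probe sets of a gene averaged) in each of 21 tumours (along the bottom), relative to the gene's mean over 8 vehicle tumours; resistant doses are in mg/kg/day. Red is above and blue below that mean: the LDE225-treated tumours of 48 h are red for every gene, mouse 3 of the resistant tumours at 160 mg/kg/day lies below that mean for all 8 genes (Sparc at -0.06, too pale to tell from 0), and vehicle mouse 1 is redder than the other vehicle tumours of its time for most genes.

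The first question was how soon the matrix genes differed under Smo inhibition in sensitive tumours. Transcripts of Col1a1 and Sparc were higher under LDE225 at 16 h and again at 48 h. A probe set of Col1a2 was higher at 16 h and that of Postn at 48 h, and none of the 13 members was called at 4 h. At 16 h 5 members rose and none fell, beside 7.87% of all probe sets tested that rose, and at 48 h again 5 rose and none fell, beside 11.6%. At 4 h the share of all probe sets called was 0.104%, and no member reached an unadjusted p under 0.05. The median log2 difference of the members was -0.02 at 4 h, 1.22 at 16 h and 1.60 at 48 h, against 0.02, 0.09 and 0.09 over all probe sets tested.

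For Col1a1, the first chain of type I collagen, the brighter probe set 1423669_at had signals of 1233.6, 1613.3 and 1654.7 in LDE225-treated tumours at 16 h, against 826.6, 262.9 and 275.3 in vehicle tumours. At 48 h it had 4070.2 and 2868.7 in treated tumours, against 1706.9 and 459 in vehicle tumours. The groups did not overlap at either time, though vehicle mouse 1 of 48 h was above every treated tumour of 16 h. The log2 difference was 1.91 at 16 h (standard error, SE, 0.55; limma adjusted p = 0.023) and 1.94 at 48 h (SE 0.67, limma adjusted p = 0.043), which are 3.77-fold and 3.84-fold. The other probe set, 1455494_at, rose at both times too, by 1.37 (SE 0.36, limma adjusted p = 0.015) and 1.5 (SE 0.44, limma adjusted p = 0.019).

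Col1a2, the partner chain, moved in step with Col1a1. Its probe set 1450857_a_at had 3178, 4493.4 and 3930.7 in treated tumours at 16 h, against 2571.1, 866.8 and 966.1 in vehicle tumours. That rise passed the test, with a log2 difference of 1.56 (SE 0.51, limma adjusted p = 0.044), and the similar difference of 1423110_at, 1.53, did not (limma adjusted p = 0.081). At 48 h 1450857_a_at had 7589.4 and 6182.3 in treated tumours, against 4333.1 and 1233.2 in vehicle tumours. The log2 differences at 48 h were 1.57 (limma adjusted p = 0.077) for this probe set and 1.86 (limma adjusted p = 0.061) for 1423110_at, and neither passed.

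Col3a1, the chain of type III collagen, had higher treated means at 16 h and 48 h, and no difference passed at any time. At 4 h the log2 differences were -0.04 for 1427883_a_at and -0.06 for 1427884_at. The probe set 1427883_a_at had 8652.1 and 8166.6 in treated tumours at 48 h, against 5903 and 1291.1 in vehicle tumours. Mouse 1 of the vehicle tumours was thus far above mouse 3, and the log2 difference of 1.60 had a standard error of 0.82 (limma adjusted p = 0.17). For 1427884_at the log2 difference at 48 h was 2.50 (SE 0.92, limma adjusted p = 0.056).

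The proteoglycans of collagen fibrils had the largest differences at 48 h and also the widest spread. Dcn, which encodes decorin, had 2458.6 and 2860.2 in treated tumours at 48 h, against 1252.8 and 99.4 in vehicle tumours. Lum, which encodes lumican, had 1695.1 and 1789.8 in treated tumours, against 690.7 and 104.3 in vehicle tumours. Both treated tumours lay above both vehicle tumours for each gene, but the vehicle tumours were so far apart that neither difference passed. It was 2.88 on the log2 scale for Dcn (SE 1.32, limma adjusted p = 0.13) and 2.67 for Lum (SE 1.01, limma adjusted p = 0.065). At 16 h Dcn had 184.5, 1141.7 and 208 in treated tumours, against 671.1, 64.4 and 77.1 in vehicle tumours, with 1 high tumour on each side. Lum at 16 h had 145.9, 816.8 and 171.7 in treated tumours, against 497, 98.5 and 76.2 in vehicle tumours, high in the same 2 tumours.

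Among the matricellular genes, Sparc rose at 16 h with the smallest error of the list. Its probe set 1416589_at had 2709.3, 3168.9 and 3328.3 in treated tumours, against 1981.8, 958 and 1061.5 in vehicle tumours, without overlap. The log2 difference was 1.27 at 16 h (SE 0.26, limma adjusted p = 0.0026) and 1.07 at 48 h (SE 0.32, limma adjusted p = 0.021). The other Sparc probe set, 1448392_at, rose by 1.22 at 16 h (limma adjusted p = 0.005) and by 1.09 at 48 h (limma adjusted p = 0.025). Sparc was also the gene of the list that differed with time in vehicle tumours. Probe set 1416589_at had 4604.9 and 2216.6 in vehicle tumours of 48 h, against 1422.2, 1080.3 and 1319.8 in those of 4 h, a log2 difference of 1.33 (SE 0.29, limma adjusted p = 0.037). No other member passed between these vehicle times, 1448392_at included (0.66, limma adjusted p = 0.41), beside 0.63% of all probe sets that were higher at 48 h. The call was lost when any 1 of the 5 vehicle tumours of these times was left out, and the lower actin ratio of the 48 h arrays went with the same contrast, so harvest time and that ratio cannot be told apart.

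Postn, which encodes periostin, had 5369.3 and 4992.1 in treated tumours at 48 h, against 3191.3 and 717 in vehicle tumours. The log2 difference of 1.77 passed (SE 0.62, limma adjusted p = 0.047), whereas that of 16 h, 0.89, did not (limma adjusted p = 0.28). For fibronectin the 2 probe sets of Fn1 went apart. The bright 1426642_at had 2393.9 and 2676 in treated tumours at 48 h, against 2092.9 and 773.6 in vehicle tumours, a log2 difference of 0.99 that did not pass (SE 0.44, limma adjusted p = 0.11). The dim 1437218_at had 45.3 and 77.5, against 64.2 and 49, a log2 difference of 0.08 (limma adjusted p = 0.93).

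**Figure D2:**
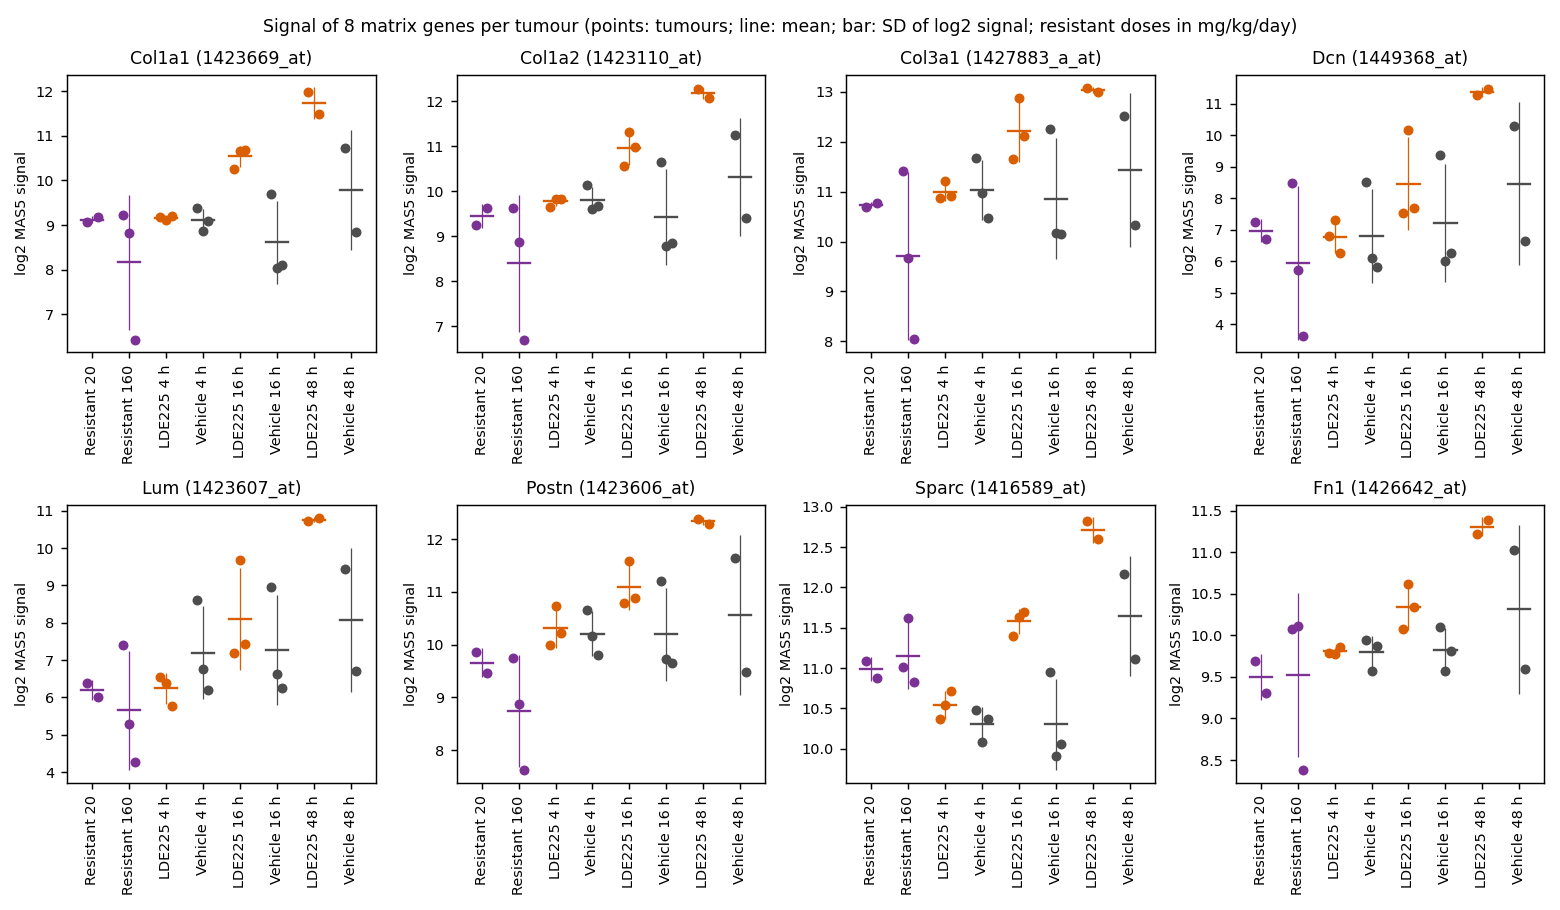
Log2 MAS5 signal of 1 probe set for each of the 8 genes, by group; points are tumours, lines are group means and bars are SD of the log2 signal, with resistant doses in mg/kg/day. The 2 LDE225-treated tumours of 48 h form the highest group for every gene shown. In the vehicle group of 16 h 1 tumour lies well above the rest for most genes, and the 2 vehicle tumours of 48 h lie far apart.

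At 48 h 12 of the 13 members had both treated tumours above both vehicle tumours, the exception being the dim Fn1 probe set, while 35.2% of all probe sets tested did so. At 16 h 5 members were higher without overlap, beside 20.7% of all probe sets tested. The treated group of 48 h had the highest of the 8 group means for the same number, 12. In each of them its mean minus SD lay above the mean plus SD of the next group, the only group checked. Each SD of that treated group rests on 2 tumours, and the share of all probe sets with such an order was not counted. For Fn1 1426642_at, the vehicle tumours of 48 h (10.32, SD 1.01) reached into the range of the treated ones (11.31, SD 0.11). For Col3a1 1427883_a_at the ranges of the vehicle tumours (11.43, SD 1.55) and the treated tumours (13.04, SD 0.06) of 48 h met. Further down the order the groups ran into each other: 76 of the 91 pairs of neighbouring group means had overlapping SD ranges. The treated group of 16 h came next for 10 members, and the resistant tumours at 160 mg/kg/day had the lowest mean for 9.

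Averaged over the 3 times, 7 members rose and none fell (12.2% of all probe sets tested rose): both probe sets of Col1a1, Col1a2 and Sparc, and that of Postn. Their log2 differences lay between 0.76 for Sparc 1448392_at (SE 0.17, limma adjusted p = 0.0033) and 1.31 for Col1a1 1423669_at (SE 0.34, limma adjusted p = 0.0094). The largest difference of the list, 1.35 for Dcn, did not pass (SE 0.67, limma adjusted p = 0.16). The difference between the effects of 48 h and 4 h was itself tested, and it passed for 0 members (12.8% of all probe sets did) with 5 members at an unadjusted p under 0.05. Its log2 value was positive for all 13, with a median of 1.64, and the lowest adjusted p belonged to Lum (3.60, SE 1.31, limma adjusted p = 0.078). Between 16 h and 4 h it again passed for 0 members (3.83% of all), with 3 at an unadjusted p under 0.05.

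The calls of 48 h rested on few tumours. With mouse 1 of the vehicle group left out, 12 of 13 members were called higher, and with vehicle mouse 3 or either treated tumour left out, 0 were. With array medians made equal, which put the median of all probe sets at 48 h at -0.31 in place of 0.09, 1 member passed. In the fits without a tumour the lone tumour of a group was assumed to vary like the others. Against the vehicle tumours of all 3 times, a comparison chosen after seeing the spread at 48 h, 12 members were higher. Most of those vehicle arrays were of 4 h and 16 h, with higher actin ratios. Harvest time and that ratio thus cannot be told apart from the drug there. The counts of these alternative fits are given without the share of all probe sets. At 16 h 2 members were called without vehicle mouse 2, without vehicle mouse 3, without treated mouse 2 or without treated mouse 3. The difference between the effects of 48 h and 4 h passed for 8 members without vehicle mouse 1 of 48 h, and that between 16 h and 4 h for 2 without vehicle mouse 1 of 16 h. The count over the mean of 3 times was 11 without vehicle mouse 1 of 48 h and 3 without vehicle mouse 3 of 48 h.

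**Figure D3:**
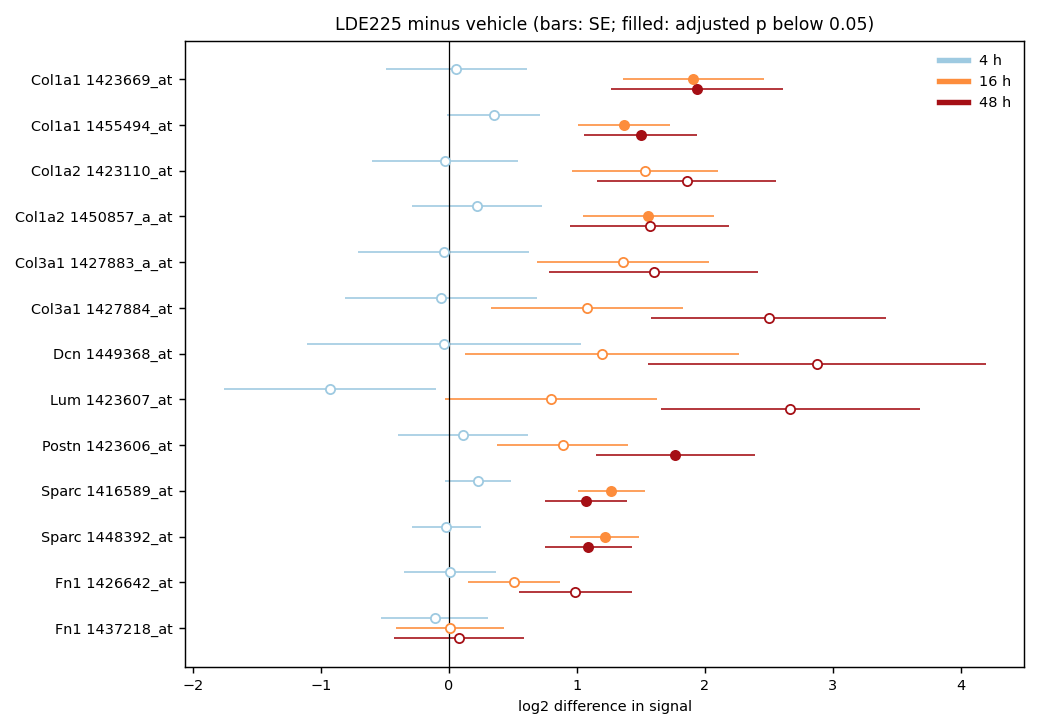
Log2 difference in signal (along the bottom), LDE225-treated minus vehicle tumours, of the 13 probe sets at 4 h, 16 h and 48 h; bars are standard errors and filled points have a limma adjusted p below 0.05. At 4 h the points lie between -0.93 and 0.35 and none is filled; at 16 h and 48 h all lie above 0 and 5 are filled at each time.

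Resistant tumours were then compared with sensitive tumours under the drug, which asks whether the level seen under LDE225 was also present in tumours that grew despite it. Of the 13 members, 12 were lower in resistant tumours than in treated sensitive tumours of 16 h and 48 h, and none was higher, beside 13.2% of all probe sets tested that were lower. All 8 genes had a lower probe set, and the median log2 difference of the members was -2.40, against -0.01 over all probe sets. The exception was again the dim Fn1 probe set 1437218_at, with -0.07 (limma adjusted p = 0.91). The groups also differed in dose schedule and time on drug, which cannot be told apart from resistance here.

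The type I collagen signals of resistant tumours lay clear of those of treated tumours of 16 h and 48 h, the times compared. Col1a1 1423669_at had 533.3 and 576.4 in resistant tumours at 20 mg/kg/day, then 602, 453.6 and 85.9 at 160 mg/kg/day, all below the lowest treated value of 1233.6 at 16 h. Its log2 difference was -2.48 (SE 0.43, limma adjusted p = 0.00032), and that of 1455494_at was -2.21 (SE 0.28, limma adjusted p = 1.7e-05). Col1a2 differed by -2.63 for 1423110_at (SE 0.45, limma adjusted p = 0.00026) and by -2.22 for 1450857_a_at (SE 0.40, limma adjusted p = 0.00043). Treated tumours of 4 h, not part of this comparison, had 577.9, 554.4 and 591.1 for Col1a1 1423669_at, within the resistant range. At 4 h Col1a2 1450857_a_at overlapped the resistant values too, while 1455494_at and 1423110_at lay above all of them. Col3a1 1427883_a_at had 1648.3 and 1742.3 at 20 mg/kg/day, then 2722.7, 810.3 and 265.9 at 160 mg/kg/day, against 3244.6 as the lowest treated value. That was a log2 difference of -2.40 (SE 0.53, limma adjusted p = 0.0023), and 1427884_at had -3.03 (SE 0.59, limma adjusted p = 0.00087).

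The proteoglycans differed most. Lum had 83.5 and 64.9 in resistant tumours at 20 mg/kg/day, then 168.6, 39 and 19.3 at 160 mg/kg/day, a log2 difference of -3.41 from treated tumours (SE 0.65, limma adjusted p = 0.00075). Dcn had 151.2 and 105.2 at 20 mg/kg/day, then 362.5, 52.5 and 12.5 at 160 mg/kg/day, a log2 difference of -3.35 (SE 0.85, limma adjusted p = 0.0065). For both genes mouse 1 at 160 mg/kg/day reached into the range of treated tumours of 16 h, so the groups overlapped. Postn was lower without overlap by -2.50 (SE 0.40, limma adjusted p = 0.00015), with 926.3 and 707.9 in resistant tumours at 20 mg/kg/day, then 854.1, 468 and 197.2 at 160 mg/kg/day.

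Sparc and Fn1 fell least. Sparc 1416589_at had 2178.1 and 1888.2 in resistant tumours at 20 mg/kg/day, then 2058.1, 3144.4 and 1823.5 at 160 mg/kg/day. These values overlapped those of treated tumours of 16 h, and the log2 difference was -1.07 (SE 0.21, limma adjusted p = 0.00079); 1448392_at had -1.22 (SE 0.22, limma adjusted p = 0.00039). Fn1 1426642_at differed by -1.31 (SE 0.28, limma adjusted p = 0.002), with 829.4 and 632.4 in resistant tumours at 20 mg/kg/day, then 1081.2, 1107.2 and 333.1 at 160 mg/kg/day. In all, 7 members were lower without overlap, beside 4.01% of all probe sets tested. The count of 12 lower members was the same when any 1 tumour was left out, and against the treated tumours of 48 h alone. Those treated tumours had actin ratios of 1.26 and 1.33, against 1.27 to 1.40 in the resistant arrays.

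**Figure D4:**
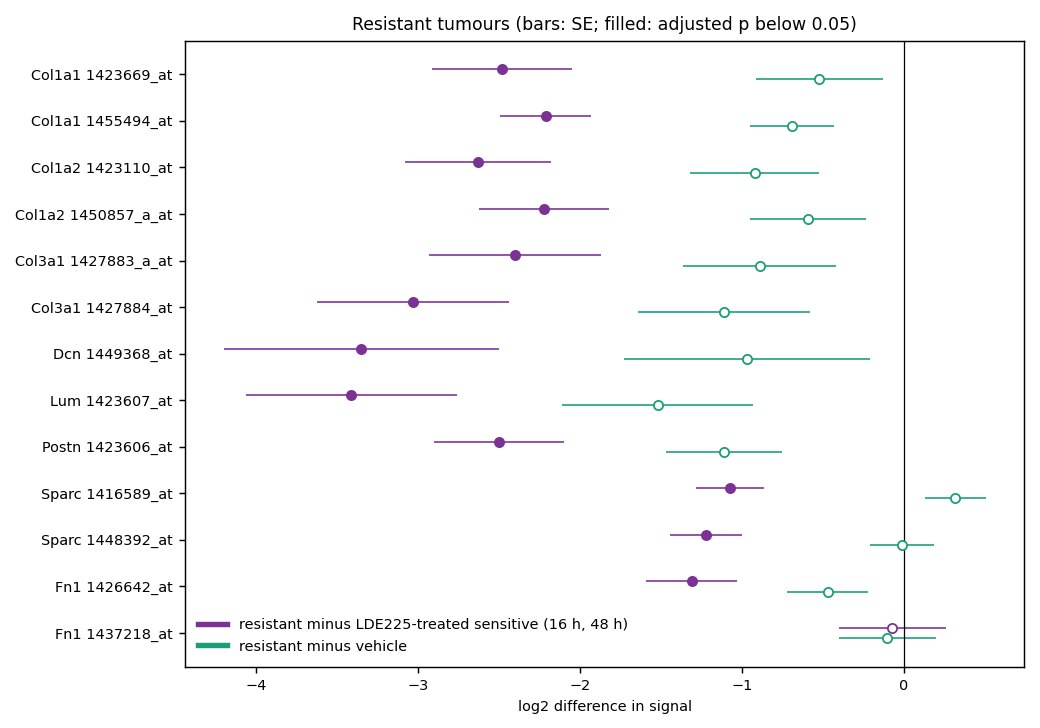
Log2 difference in signal (along the bottom) of the 13 probe sets, resistant minus LDE225-treated sensitive tumours of 16 h and 48 h (purple) and resistant minus vehicle tumours (green); bars are standard errors and filled points have a limma adjusted p below 0.05. Against treated tumours 12 points are filled and lie between -3.41 and -1.07, and against vehicle tumours none is filled.

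Against vehicle tumours, the resistant tumours had lower values for most matrix genes, but no member passed the test when both doses were pooled (10.8% of all probe sets tested passed). Of the 13 log2 differences 12 were negative, with a median of -0.69 against 0.07 over all probe sets, and 4 members had an unadjusted p under 0.05. Postn came nearest, with -1.11 (SE 0.36, limma adjusted p = 0.055), and Lum had -1.52 (SE 0.59, limma adjusted p = 0.11). Vehicle signals of Postn ran over 8 tumours between 717 and 3191.3 with a median of 1023, and those of resistant tumours over 5 between 197.2 and 926.3 with a median of 707.9, so the groups overlapped. The vehicle arrays came from 4 h to 48 h and the resistant ones from day 26, so time on study cannot be told apart from resistance. This comparison shares its vehicle arrays with those of LDE225 against vehicle.

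At 160 mg/kg/day alone Postn was lower, by a log2 difference of -1.57 (SE 0.42, limma adjusted p = 0.033), the only member called (2.93% of all probe sets tested were lower). A further 7 members had an unadjusted p under 0.05, and the median of the 13 was -1.05. At 20 mg/kg/day no member passed (6.83% of all probe sets did) or reached an unadjusted p under 0.05, and the median was -0.40. The doses were compared directly as well: 0 members differed between 160 and 20 mg/kg/day (0.773% of all probe sets did), none with an unadjusted p under 0.05. Their log2 differences lay between -1.03 for Col1a2 1423110_at (95% interval -2.36 to 0.29) and 0.31, so a sizeable difference in either direction was within the error. The call of Postn at 160 mg/kg/day was not present against the vehicle tumours taken at 48 h, whose actin ratios were low as well. It was also lost without vehicle mouse 1 or 2 of 4 h, vehicle mouse 1 of 48 h, or resistant mouse 2 or 3 at 160 mg/kg/day. With array medians made equal, which put the median of all probe sets at -0.15 in place of 0.07 for the pooled doses, 5 members were lower than in vehicle tumours. Mouse 1 at 160 mg/kg/day weighed on the counts, which have no share of all probe sets beside them. Without it, 6 members were lower in resistant than in vehicle tumours, and 7 at 160 mg/kg/day alone. Without vehicle mouse 3 of 48 h, 4 were lower in each of these comparisons, and without vehicle mouse 3 of 16 h, 1 was lower for the pooled doses.

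In resistant tumours, Sparc and the dim Fn1 probe set lay nearest to their vehicle levels averaged over the 3 times. The 2 probe sets of Sparc differed from vehicle by 0.32 (SE 0.19, limma adjusted p = 0.30) and -0.01 (SE 0.20, limma adjusted p = 0.98), and 1416589_at was the only member with a positive value. In the within-tumour comparisons that follow, the probe sets of a gene were averaged, so Fn1 includes the dim 1437218_at. Sparc was measured against each of the other genes in the same tumour, a comparison made after seeing the values and given with no test. Its log2 level was higher in resistant than in vehicle tumours by between 0.51 relative to Fn1 and 1.76 relative to Lum. Relative to Lum it averaged 4.92 ± 1.12 (SD, n = 5) in resistant tumours and 3.16 ± 0.90 (SD, n = 8) in vehicle tumours, and 4 of the 5 resistant tumours lay above all vehicle tumours. Relative to Col1a1 it averaged 2.93 ± 0.80 in resistant tumours and 2.06 ± 0.29 in vehicle tumours, with 2 of the 5 above all vehicle tumours, as was the count for each of the genes other than Lum. In mouse 1 at 160 mg/kg/day Sparc was no higher than Fn1, Col3a1 or Dcn: relative to the vehicle mean it stood at 0.26, against 0.27, 0.33 and 1.09. Against the vehicle tumours of 48 h alone the same differences ran between -0.14 relative to Fn1 and 1.56 relative to Lum. The bright Fn1 probe set 1426642_at averaged 10.32 on the log2 scale in vehicle tumours of 48 h. In resistant tumours at 20 and 160 mg/kg/day it averaged 9.51 and 9.53. In the same order of groups Sparc averaged 11.64, 10.99 and 11.16 for 1416589_at, and 11.27, 10.6 and 10.83 for 1448392_at.

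Across the 21 tumours the matrix genes rose and fell together, which is given as a description because groups, arrays and scaling are shared by the points. The correlation of a member with the mean of the other genes was between 0.926 and 0.98 for 10 of the 13 probe sets. It was 0.708 and 0.817 for the Sparc probe sets and 0.255 for Fn1 1437218_at. With group means removed it was still between 0.832 and 0.976 for the 10 and 0.694 and 0.756 for Sparc. Probe sets of 1 gene tracked each other at 0.992 for Col1a2, 0.971 for Col1a1, 0.969 for Col3a1 and 0.945 for Sparc, but at 0.485 for Fn1. Probe sets outside the list with the most similar pattern over the 21 tumours were 1460208_at, with a correlation of 0.991 with the mean of the 8 genes, and 1450625_at, with 0.983, and neither could be named here. The signal of 1460208_at averaged 2050 ± 120 (SD, n = 2) in treated tumours of 48 h and 814 ± 847 (SD, n = 2) in vehicle tumours of 48 h. In all, 102 of 32829 other probe sets had a correlation of at least 0.9 and 20 of at least 0.95.

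The DNA of other tumours was read at the same genes, to see whether copy number differed there. It was measured on Agilent arrays against liver DNA in 3 resistant tumours, dosed at 40, 80 and 160 mg/kg/day, and in 3 vehicle tumours, all of day 26. The title of the 160 mg/kg/day tumour says vehicle, while its status, treatment and dose say resistant, and it was grouped by these. No gene of the 8 passed the test between resistant and vehicle tumours (limma, lowest adjusted p = 0.064), beside 1.78% of 16992 genes tested. Positions are of build mm8, from the files, and values are mean log2 ratios of tumour over liver DNA.

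Single tumours had low values around Dcn and Lum, which lie side by side on chromosome 10, and around Postn. Dcn (chr10:96918776-96947679, 4 probes) had -0.18, -0.56 and -0.90 in resistant tumours at 40, 80 and 160 mg/kg/day, against -0.20, -0.16 and -0.14 in vehicle tumours. Lum (chr10:96997860-97002062, 2 probes) had -0.09, -0.63 and -0.83 in the same resistant tumours, against 0.01, 0.02 and 0.05 in vehicle tumours. The 80 and 160 mg/kg/day tumours were thus low at both genes and the 40 mg/kg/day tumour was not. The region with 500 kb on either side of Dcn gave -0.06, -0.52 and -0.74 in resistant tumours, against -0.13, -0.11 and -0.11 in vehicle tumours. Medians over all of chromosome 10 were -0.23, -0.17 and -0.22 in resistant tumours, against -0.03, -0.03 and -0.02 in vehicle tumours. The difference at the gene did not pass for Dcn (-0.38, SE 0.17, limma adjusted p = 0.18) or Lum (-0.55, SE 0.18, limma adjusted p = 0.11). With normexp background correction in place of the processed signals, the differences shrank to -0.20 for Dcn (limma adjusted p = 0.59) and -0.16 for Lum (limma adjusted p = 0.61). Without the 40 mg/kg/day tumour both passed, Dcn at -0.57 (limma adjusted p = 0.03) and Lum at -0.76 (limma adjusted p = 0.0063), which rests on the 2 tumours named. Without the 160 mg/kg/day tumour, whose title disagrees with its other labels, neither did, with Dcn at -0.21 (limma adjusted p = 0.28) and Lum at -0.39 (limma adjusted p = 0.17).

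Postn (chr3:54450650-54478682, 5 probes) was low in 1 tumour, with 0.05, 0.01 and -0.64 at 40, 80 and 160 mg/kg/day, against -0.05, -0.10 and -0.06 in vehicle tumours. Its region, with 500 kb on either side, gave -0.70 in the 160 mg/kg/day tumour, whose median over chromosome 3 was -0.28. Col1a1 (chr11:94755718-94767856, 4 probes) was lower at the gene itself, at -0.31, -0.20 and -0.44 in resistant tumours, against 0.16, -0.05 and -0.02 in vehicle tumours, and less so in its region, where resistant tumours had -0.05, 0.00 and -0.03 and vehicle tumours 0.12, 0.09 and 0.09, also without overlap. The difference of -0.35 at the gene did not pass (SE 0.08, limma adjusted p = 0.068). Col1a2 (chr6:4458271-4491329, 6 probes) was above liver DNA in every tumour, at 0.57, 0.49 and 0.56 in resistant tumours and 0.48, 0.51 and 0.52 in vehicle tumours. The whole of chromosome 6 was alike, with medians of 0.49, 0.45 and 0.48 in resistant tumours and 0.48, 0.48 and 0.50 in vehicle tumours. Sparc (chr11:55238168-55259313, 5 probes) had 0.02, -0.04 and -0.02 in resistant tumours, against 0.11, 0.15 and 0.13 in vehicle tumours, without overlap. Its difference of -0.15 had the lowest adjusted p of the 8 genes and did not pass (SE 0.03, limma adjusted p = 0.064). Col3a1 (chr1:45256241-45289630, 6 probes) and Fn1 (chr1:71518757-71578665, 9 probes) differed by -0.02 and 0.05. Neighbouring probes differed more in the resistant arrays (SD 0.335, 0.299 and 0.467) than in the vehicle arrays (0.174, 0.227 and 0.221). No tumour is stated to be in both the RNA and the DNA set, so no RNA value could be set beside its own copy number.

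**Figure D5:**
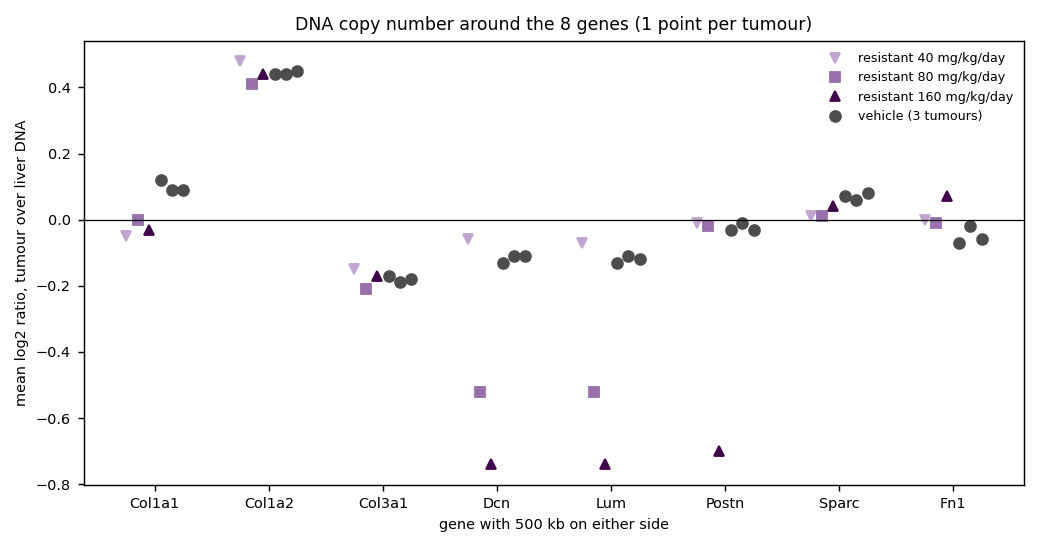
Mean log2 ratio of tumour over liver DNA (up the side) over each of the 8 genes with 500 kb on either side, 1 point per tumour: resistant tumours at 40, 80 and 160 mg/kg/day at left and 3 vehicle tumours at right for each gene. The 80 and 160 mg/kg/day tumours lie at -0.52 and -0.74 around Dcn and Lum and the 160 mg/kg/day tumour at -0.70 around Postn. All 6 tumours lie above 0.40 around Col1a2, as do their medians over chromosome 6 (not drawn).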

How the data were processed

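RNA of 21 tumours was measured on 1-colour Affymetrix arrays, 1 tumour per array. The deposited RNA values are linear intensities from MAS5, as named in the submitters' processing notes; its version and scaling target are not given in the sources used here. For DNA, the intensities used are the processed signals of Agilent Feature Extraction 9.5.3.1, per the file headers, with tumour DNA in Cy5 and liver DNA in Cy3, per the labels, and positions of build mm8. The authors' deposited log10 ratios of the same 6 DNA arrays correlated at 0.999 or more with the scanner values, in the same direction, and served as an alternative.

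For RNA, an offset of 4 was added before log2, which understates fold changes of dim probe sets. Tests took the probe sets at or above the 40th percentile of the array on 2 or more arrays, without the 64 control probe sets. One limma 3.58.1 model (R 4.3.3) with 8 group means and a mean-variance trend was fitted to all 21 arrays, with 13 residual degrees of freedom. Tests were two-sided, with Benjamini-Hochberg adjustment over all probe sets of a comparison and a threshold of 0.05. For DNA, log2 of Cy5 over Cy3 had each array's autosomal median subtracted, with no loess step, and was averaged over the probes of each gene, of 233011 in all, for genes with at least 2 probes. The model was tested on simulated data. Python 3.11.15, numpy 2.4.6, pandas 2.3.3 and matplotlib 3.10.9 were also used. The number of arrays limits the precision throughout, and 99.9% of DNA probes were well above background on each array.

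The members, gene lists and tests were chosen with earlier results of these data known. The rule for named genes took all 13 members and the probe sets most correlated with the mean of the 8 genes, of which at most 2 are given by identifier. Lists of other matrix genes, Hedgehog targets and cell type markers were not analysed here, because the tables used hold no gene names for probe sets. Promoter sequences are RefSeq's.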

Additional observations from a re-analysis of the deposited data

How the results depend on the processing

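The count of 12 members lower in resistant than in treated sensitive tumours was 12 under every alternative run. Of 3093 values of single members under the alternatives, DNA included, 2899 kept their side of the threshold, 107 newly passed and 87 no longer passed. Among the 2899, 110 had the opposite sign, and 0 of these were called in either fit. The cause of the changes was not tested. Counts of members under the alternatives are given here without the share of all probe sets. For LDE225 against vehicle at 48 h (5 members called) the count was 8 with an offset of 32, 1 with equal array medians, 3 without the filter, 3 without the mean-variance trend, 10 with array weights, 1 with only the groups compared in the fit and 12 against vehicle tumours of all 3 times, the last chosen after seeing the data. At 16 h (5) array weights gave 8. For the effect at 48 h minus that at 4 h (0) array weights gave 4 and only the groups compared 4, and for 16 h minus 4 h (0) they gave 5 and 2. For resistant against vehicle tumours (0) equal medians gave 5 and a filter at the 60th percentile 1. At 160 mg/kg/day against vehicle (1) equal medians gave 4, and no trend, array weights, only the groups compared and vehicle tumours of 48 h alone gave 0 each. For vehicle tumours of 48 h against 4 h (1) equal medians, no trend and only the groups compared gave 0. Leaving out each tumour in turn gave 2 to 6 members at 16 h, 0 at 4 h, 0 to 12 at 48 h, 3 to 11 for the mean of 3 times, 0 to 2 for 16 h minus 4 h, 0 to 8 for 48 h minus 4 h, 0 to 6 for resistant against vehicle, 0 to 7 at 160 mg/kg/day, 0 at 20 mg/kg/day, 0 between the doses, 0 for the vehicle times and 0 to 2 genes for DNA. Mouse numbers showed no general pairing of the tumours. Over 64 same-numbered pairs of arrays of different groups, deviations from group means correlated between -0.201 and 0.432 (median 0.0045, 17 over 0.1). Between vehicle groups the values were 0.154, -0.036 and 0.161 for 4 h with 16 h. They were 0.162 and 0.103 for 4 h with 48 h, and 0.432 and 0.198 for 16 h with 48 h. Whether vehicle tumours of the same number are linked was not tested. The fit with the replicate block gave 3 members at 48 h, 4 for resistant against vehicle, 4 at 160 mg/kg/day and 0 for the vehicle times.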
